A study of Homo sapiens with 6 samples.

Results

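Contactins, the contactin-associated proteins (CNTNAP) and tenascin-R are cell surface and matrix proteins of neurons and glia. Contactins are immunoglobulin superfamily proteins held in the membrane by a lipid anchor. CNTNAP proteins are membrane-spanning relatives of the neurexins. Contactin-1 pairs with CNTNAP1 at the paranodes of myelinated axons, where axon and glial loop meet. Contactin-2 pairs with CNTNAP2 at the neighbouring juxtaparanodes, where potassium channels gather. Tenascin-R, the product of TNR, is a matrix glycoprotein of perineuronal nets and nodes of Ranvier that binds contactin-1.

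The members were chosen by gene symbol from a list of 10 genes, with the condition that the gene had a row of read counts in the siControl and siPSF libraries. CNTNAP1, CNTNAP2, CNTNAP4, CNTNAP5, CNTN1, CNTN2, CNTN3, CNTN4 and TNR had one, which gave 9 members among the 21301 rows. CNTN5 was not analysed here. Every row held at least 1 count in every library, so the condition already required the gene to be detected in all 6. All 9 members passed the filter on low counts, which kept 19694 rows.

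The libraries came from SH-SY5Y, a human neuroblastoma line with neuronal character, grown without a differentiation step in the labels. Cells of both groups were treated for 72 h, with a control siRNA (siControl, 3 libraries) or with 10 nM of siRNA against PSF (siPSF, 3 libraries). PSF, encoded by SFPQ, is a nuclear RNA-binding protein of the DBHS family that takes part in transcription and RNA processing. All libraries share this single line, and the siPSF libraries share 1 siRNA against PSF. The study's text calls the 3 libraries of a group biological triplicates, and the labels do not say how the cultures were separated. In bulk RNA, fewer cells carrying a transcript and less of it per cell cannot be told apart.

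SFPQ was measured at 372, 356 and 401 CPM (read counts scaled to a common, normalised library size) in siControl and at 209, 193 and 165 CPM in siPSF. Its log2 fold change was -0.99 (SE 0.10, adjusted p = 9.5e-05 by the quasi-likelihood test of edgeR, Benjamini-Hochberg adjusted across the genes tested), so 50.2% of the siControl level remained. Libraries held 101540520 to 132420931 counts. All 8 adrenergic neuroblastoma markers looked up had rows, with summed levels of 3876 to 4403 CPM in siControl and 3336 to 3810 CPM in siPSF. Of the Schwann cell and oligodendrocyte markers, SOX10, MBP, MAG, MOG, OLIG2 and CDH19 had no row, and S100B was measured at 0.469, 0.322 and 0.278 CPM in siControl and 0.328, 0.691 and 0.619 CPM in siPSF. Mesenchymal markers (6 of 7 with rows) summed to 277 to 298 CPM in siControl and 240 to 267 CPM in siPSF. The part of these shifts in the results below was not tested. The members were lowest of the siPSF libraries in replicate 3 for 7 genes and highest there for CNTNAP4 and CNTN1.

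The stretches just before the start of 3 of the genes that fell and of CNTNAP1, which was not called, are printed as sequence context. RNA levels were compared here, and promoter activity was not measured. The stretches are the last 120 bases before the RefSeq start on GRCh38.p14, all on the plus strand, with GC box letters (GGGCGG or its reverse complement CCGCCC) in capitals.
CNTNAP1 (chr17:42682411-42682530): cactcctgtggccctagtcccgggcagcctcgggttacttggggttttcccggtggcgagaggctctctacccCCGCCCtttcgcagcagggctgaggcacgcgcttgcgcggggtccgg
CNTNAP2 (chr7:146116681-146116800): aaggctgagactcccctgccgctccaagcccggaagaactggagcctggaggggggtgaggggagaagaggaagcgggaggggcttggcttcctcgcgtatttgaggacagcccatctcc
CNTNAP5 (chr2:124025167-124025286): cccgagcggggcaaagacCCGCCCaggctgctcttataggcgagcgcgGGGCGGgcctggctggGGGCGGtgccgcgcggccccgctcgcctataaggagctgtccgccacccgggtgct
CNTN4 (chr3:2098746-2098865): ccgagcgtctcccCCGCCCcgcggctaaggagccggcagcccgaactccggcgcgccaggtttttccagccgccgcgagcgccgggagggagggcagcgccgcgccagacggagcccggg

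The RefSeq promoter table held entries for 8 members, TNR being the exception, and the search took the 250 bases before each start on both strands. The GC box was present in CNTNAP1 (1 match), CNTNAP2 (1 match), CNTNAP5 (3 matches), CNTN4 (3 matches) and CNTN3 (3 matches), against 42.3% of all 27303 promoters and 64.1% of the 13727 belonging to genes tested. The letters TATAAA were in none of the 8 windows, in 11.1% of all promoters and in 5.79% of those of genes tested. The letters CCAAT were in the CNTNAP4 window alone among the 8, in 33.0% of all promoters and in 34.0% of those of genes tested. GC content ranged from 47.2% for CNTN1 to 81.6% for CNTN3, with CNTN4 at 79.2%, CNTNAP5 at 66.0%, CNTNAP2 at 62.4% and CNTNAP1 at 56.8%. The median was 58.0% over all promoters and 64.8% over those of genes tested. The 3 members that fell and had an entry held the GC box letters, as did CNTNAP1 and CNTN3, which were not called, while CNTN1, CNTN2 and CNTNAP4 did not. The windows of CNTN1 and CNTN2 lie inside the span of the RefSeq gene, so they belong to an inner start of it.

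Between siControl and siPSF, CNTNAP5, TNR, CNTNAP2 and CNTN4 fell, CNTNAP4 rose, and CNTNAP1, CNTN1, CNTN2 and CNTN3 did not pass the test. The fall was more than 2-fold for 3 of the 4. Over all genes tested, 8.27% were called lower and 6.65% higher. The siControl and siPSF libraries did not overlap for 5 of the 9 members, against 34.4% of all genes tested. The list was put together with earlier results of these data in view, so these counts describe it and are no evidence that it stands apart.

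**Figure D1:**
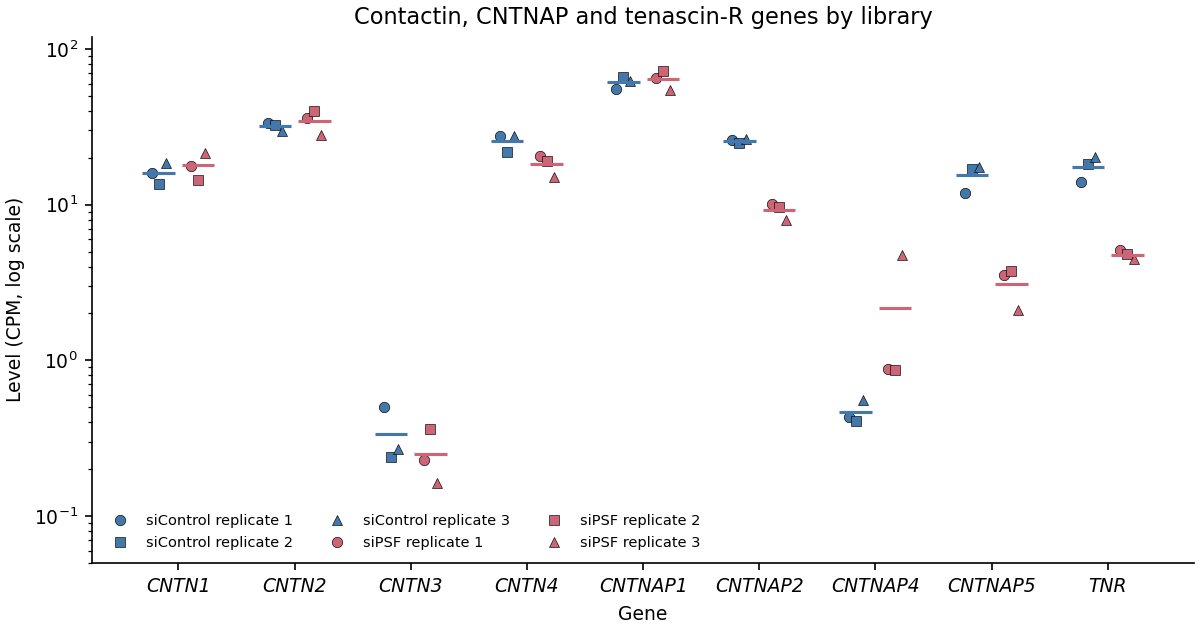
Level of each gene in CPM on a log axis, with 1 point per library (blue siControl, red siPSF, marker shape for the replicate number) and a bar at the mean of 3. The groups are apart for CNTNAP2, CNTNAP5, TNR, CNTN4 and CNTNAP4, where siPSF replicate 3 lies far above replicates 1 and 2, and they overlap for CNTNAP1, CNTN1, CNTN2 and CNTN3.

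Within the CNTNAP family, CNTNAP5 and CNTNAP2 fell. CNTNAP5 (gene ID 129684, chromosome 2 from 124025287 to 124921219) encodes a neuronal member of the family with no settled binding partner. It was measured at 11.9, 17.0 and 17.4 CPM in siControl and at 3.51, 3.72 and 2.11 CPM in siPSF. Its highest siPSF library lay below its lowest siControl library. The siControl mean of 15.4 ± 3.08 CPM compared with 3.11 ± 0.876 CPM in siPSF (SD, n = 3 each). The log2 fold change was -2.31 (SE 0.21, adjusted p = 5.2e-05, edgeR), which left 20.2% of the siControl level.

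CNTNAP2 (gene ID 26047, chromosome 7 from 146116801 to 148420998) encodes CASPR2, the juxtaparanodal partner of contactin-2. Its levels were 26.0, 24.95 and 26.6 CPM in siControl and 10.1, 9.72 and 7.96 CPM in siPSF. The siControl libraries lay close together (25.8 ± 0.833 CPM, SD, n = 3), and all siPSF libraries were far below them (9.27 ± 1.15 CPM). The log2 fold change was -1.48 (SE 0.11, adjusted p = 2.9e-05, edgeR), with 35.9% of the level left.

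CNTNAP4 (gene ID 85445, chromosome 16 from 76277401 to 76560757), which is known from inhibitory and dopaminergic synapses, was the member that rose. It was scarce, with 53, 54 and 70 counts in siControl and 104, 91 and 471 counts in siPSF, or 0.436, 0.405 and 0.556 CPM against 0.876, 0.862 and 4.78 CPM. All siPSF libraries lay above all siControl libraries, and siPSF replicate 3 was 5.46 times as high as the next one. The log2 fold change was 2.21 (SE 0.57, adjusted p = 0.021, edgeR), and without siPSF replicate 3 it was 0.90 (adjusted p = 0.031). Without siControl replicate 2 (2.11, adjusted p = 0.098) or siControl replicate 3 (2.36, adjusted p = 0.091) it was not called.

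CNTNAP1 (gene ID 8506, chromosome 17 from 42682531 to 42699993) encodes CASPR, the paranodal partner of contactin-1. It was measured at 55.3, 66.6 and 61.9 CPM in siControl and at 64.9, 72.1 and 54.5 CPM in siPSF. The siPSF libraries spanned the siControl ones, and the means were 61.3 ± 5.66 and 63.9 ± 8.83 CPM (SD, n = 3 each). The log2 fold change was 0.06 (SE 0.11, adjusted p = 0.77, edgeR), and its sign turned to -0.070 with FPKM values rescaled between libraries, to -0.010 without siControl replicate 1 and to -0.037 without siPSF replicate 2.

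CNTNAP relatives outside the list were CNTNAP3 (log2 fold change 0.01, adjusted p = 0.98, edgeR), CNTNAP3B (-0.04, adjusted p = 0.95), CNTNAP3C (-0.58, adjusted p = 0.11) and the pseudogene CNTNAP3P2 (-0.13, adjusted p = 0.80), none of which was called. These are near-identical copies on chromosome 9 whose reads the counting could have split, so their single values are uncertain.

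Among the contactins, CNTN4 fell modestly. CNTN4 (gene ID 152330, chromosome 3 from 2098866 to 3057959), an axonal contactin that binds amyloid precursor protein family members, was measured at 27.8, 21.7 and 27.5 CPM in siControl and at 20.4, 19.1 and 15.0 CPM in siPSF. The highest siPSF library lay just below the lowest siControl one. The means were 25.6 ± 3.44 and 18.2 ± 2.80 CPM (SD, n = 3 each), and the log2 fold change was -0.49 (SE 0.13, adjusted p = 0.028, edgeR). Without siControl replicate 1 (-0.43, adjusted p = 0.077) or siControl replicate 3 (-0.44, adjusted p = 0.11) it was not called.

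CNTN1 (gene ID 1272, chromosome 12 from 40692439 to 41072415) was measured at 15.9, 13.5 and 18.5 CPM in siControl and at 17.7, 14.3 and 21.6 CPM in siPSF. The groups overlapped, with a log2 fold change of 0.16 (SE 0.15, adjusted p = 0.53, edgeR). With rescaled FPKM values the sign turned, to -0.030. CNTN2 (gene ID 6900, chromosome 1 from 205042949 to 205078289), which encodes TAG-1, was measured at 33.4, 32.7 and 29.9 CPM in siControl and at 35.9, 39.8 and 28.2 CPM in siPSF. Its siPSF libraries spread on both sides of the siControl ones, and its log2 fold change was 0.12 (SE 0.12, adjusted p = 0.57, edgeR), or -0.063 with rescaled FPKM values.

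CNTN3 (gene ID 5067, chromosome 3 from 74262568 to 74614659) was the scarcest contactin, with 61, 32 and 34 counts in siControl and 27, 38 and 16 in siPSF. The groups overlapped, with 0.501, 0.240 and 0.270 CPM in siControl and 0.227, 0.360 and 0.162 CPM in siPSF. The log2 fold change of -0.42 had an SE of 0.39 (adjusted p = 0.51, edgeR), so a change of this size was not detectable at this depth. It ranged from -0.77 (without siPSF replicate 2) to -0.027 (without siControl replicate 1, the library with 61 counts).

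CNTN6, a contactin outside the list that is closest in sequence to CNTN4 and CNTN3, lies 695 kb from CNTN4 on chromosome 3, from 1093024 to 1404217. It was measured at 1.47, 1.59 and 1.83 CPM in siControl and at 0.724, 0.635 and 0.669 CPM in siPSF, without overlap. Its log2 fold change was -1.27 (SE 0.20, adjusted p = 0.0015, edgeR).

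TNR (gene ID 7143, chromosome 1 from 175315194 to 175743595, minus strand) was measured at 14.0, 18.4 and 20.2 CPM in siControl and at 5.08, 4.80 and 4.45 CPM in siPSF. The siPSF libraries lay within a narrow band far below the lowest siControl library. The siControl mean was 17.5 ± 3.21 CPM and the siPSF mean 4.78 ± 0.317 CPM (SD, n = 3 each). The log2 fold change was -1.87 (SE 0.15, adjusted p = 3.1e-05, edgeR), with 27.3% of the level left.

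Levels between genes were compared per length, as FPKM (fragments scaled by exon length and library depth, as deposited). In siControl, CNTNAP1 was highest at 9.11 ± 1.73 FPKM (SD, n = 3), above CNTN4 (3.70 ± 0.558 FPKM) and CNTN2 (3.69 ± 0.181 FPKM), which did not differ beyond their spread. CNTNAP2 (2.66 ± 0.126 FPKM) and CNTN1 (2.66 ± 0.483 FPKM) were level with each other, as were CNTNAP5 (1.29 ± 0.276 FPKM) and TNR (1.29 ± 0.259 FPKM). CNTNAP4 (0.0478 FPKM) and CNTN3 (0.0362 FPKM) were near the floor of the table. In siPSF the order was CNTNAP1 (9.32 ± 1.35 FPKM), CNTN2 (3.84 ± 0.661 FPKM), CNTN1 (2.82 ± 0.598 FPKM), CNTN4 (2.47 ± 0.356 FPKM) and CNTNAP2 (0.914 ± 0.128 FPKM). TNR (0.331 ± 0.0238 FPKM), CNTNAP4 (0.315 ± 0.386 FPKM) and CNTNAP5 (0.245 ± 0.0698 FPKM) followed, with CNTNAP4 spread across its neighbours.

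The make-up of the CNTNAP family moved with these changes. CNTNAP1 made up 66.3%, 72.2% and 69.2% of the summed FPKM of the 4 CNTNAP members in siControl and 87.2%, 88.8% and 82.4% in siPSF. CNTNAP2 made up 24.2%, 17.8% and 19.8% in siControl and 9.43%, 7.96% and 8.03% in siPSF. CNTNAP5 went from 9.07%, 9.69% and 10.6% to 2.58%, 2.43% and 1.71%. CNTNAP4 made up 0.406%, 0.287% and 0.414% in siControl and 0.787%, 0.828% and 7.91% in siPSF, so that in siPSF replicate 3 it was close to CNTNAP2. The SH-SY5Y transcripts of this family were thus mostly CNTNAP1 in both groups, and more so in siPSF. Among the 4 contactins, CNTN4 made up 37.5%, 34.1% and 38.1% in siControl and 28.9%, 27.8% and 24.0% in siPSF, and the groups did not overlap.

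Partner genes were also compared within each library, which removes differences in library size. The log2 ratio of CNTN2 to CNTNAP2 counts was 0.36, 0.39 and 0.17 in siControl and 1.83, 2.04 and 1.82 in siPSF, a difference of 1.59. The log2 ratio of TNR to CNTN1 counts was -0.19, 0.45 and 0.13 in siControl and -1.80, -1.58 and -2.28 in siPSF, a difference of -2.01. Both ratios were apart in all libraries, at the smallest p that 3 against 3 allows (p = 0.1, exact permutation test, two-sided; 0.15 after adjustment over the 3 ratios). The ratio of CNTN1 to CNTNAP1, the paranodal pair, differed by 0.10 (p = 1, exact permutation test), and its groups overlapped. In each of the first 2 pairs, CNTNAP2 or TNR was called lower and its contactin partner was not called.

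Counts divided by FPKM give, up to a constant for each library, the exonic length that the authors' counting used for a gene. This readout moves when the mix of transcripts moves. Bases were obtained by taking the summed counts of a library as its total, so their absolute scale is approximate. It was steady for CNTNAP5 (12262 to 12460 bases over the 6 libraries), TNR (13949 to 14142 bases), CNTN1 (6141 to 6267 bases), CNTNAP2 (9780 to 10183 bases), CNTN2 (8655 to 8980 bases) and CNTN4 (7025 to 7288 bases). CNTNAP1 stood at 7931 bases in siControl replicate 1 and at 6458 to 6782 bases elsewhere. In CNTNAP4 it was 10201, 9873 and 9996 bases in siControl and 10130, 8399 and 6106 bases in siPSF, shortest in the library with the most counts.

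The test of this length was limited to genes that reached 200 counts in all 6 libraries. It called 0.183% of 13115 genes and 0 of the 7 members that qualified (limma, 0 of the 7 at an unadjusted p under 0.05). With at least 50 counts, CNTNAP4 entered with a log2 difference of -0.32 (SE 0.20, adjusted p = 0.37, limma), and 0 of 8 members were called. The falls of CNTNAP2, CNTNAP5, CNTN4 and TNR thus came without a called change in this length.

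**Figure D2:**
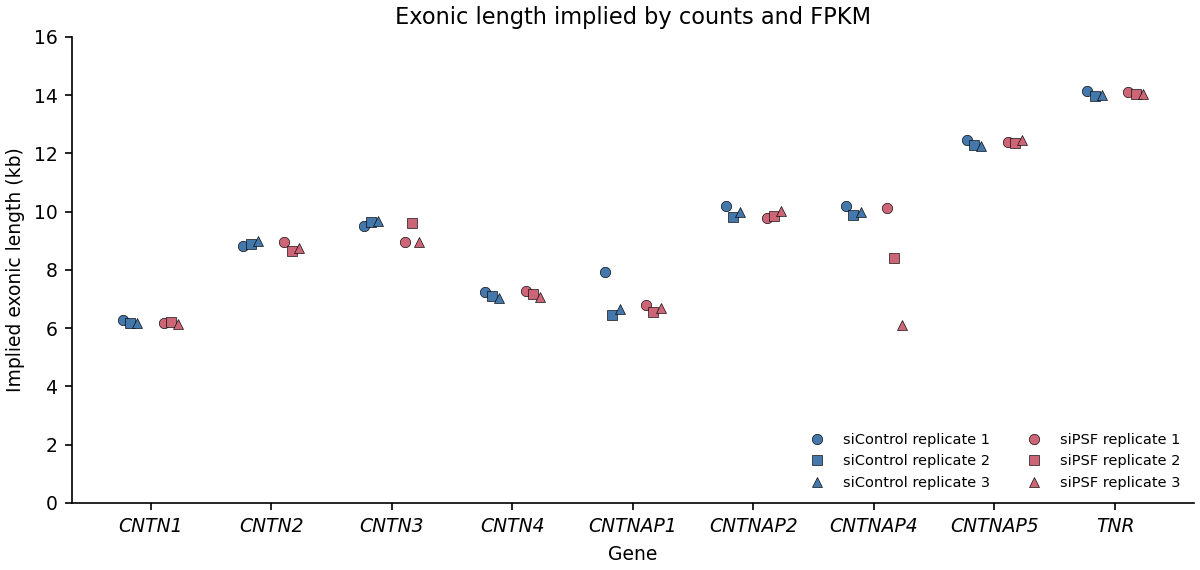
Exonic length implied by counts and FPKM, in kilobases, for each gene with 1 point per library (blue siControl, red siPSF, marker shape for the replicate number). The points lie on top of one another for most genes, while CNTNAP4 spreads from 6106 to 10130 bases among siPSF libraries and CNTNAP1 has 1 siControl library at 7931 bases.

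The 9 genes code for proteins of like size within each family and differ widely in genomic span. Translated MANE transcripts on GRCh38 (GENCODE release 44) gave 1384, 1331, 1308 and 1307 residues for CNTNAP1, CNTNAP2, CNTNAP4 and CNTNAP5, each from 24 exons. CNTN1, CNTN2, CNTN3 and CNTN4 gave 1018, 1040, 1028 and 1026 residues from 23 to 25 exons, and TNR gave 1358 residues from 23 exons. The closest pairs in sequence were CNTN3 and CNTN4 (64.8% identical residues) and CNTNAP4 and CNTNAP5 (58.6%), and the members of the second pair moved in opposite directions. CNTNAP2 and CNTNAP5, which both fell, shared 52.2%, and CNTN1 and CNTN2 shared 51.0%.

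The RefSeq spans were 2304 kb for CNTNAP2, 959 kb for CNTN4, 896 kb for CNTNAP5 and 428 kb for TNR, the 4 that fell. The other members spanned 380 kb (CNTN1), 352 kb (CNTN3), 283 kb (CNTNAP4), 35.3 kb (CNTN2) and 17.5 kb (CNTNAP1). Every member of at least 400 kb was called lower and no shorter one was. The 400 kb cut lies between TNR and CNTN1, and CNTN6, a contactin outside the list, spans 311 kb and was called lower. Longest introns did not separate the members in the same way: that of CNTN1 was 216 kb, beside 215 kb in TNR, 196 kb in CNTNAP5, 239 kb in CNTN4 and 657 kb in CNTNAP2. Which start of CNTN1 these cells used was not tested.

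Protein-coding genes of the whole table were set beside these values by span. Of 11648 genes under 100 kb, 4.64% were called lower, with a median log2 fold change of 0.05. Of 2400 genes from 100 to 400 kb, 20.7% were called lower, with a median of -0.15. Of 370 genes of at least 400 kb, 53.8% were called lower (95% Wilson interval 48.7 to 58.8%) and 6 higher, with a median of -0.58 and quartiles of -1.001 and -0.21. Among these 370, 3 had a lower log2 fold change than CNTNAP5, 11 a lower one than TNR and 31 a lower one than CNTNAP2. CNTN4, with 206 below it, stood near the middle of genes of its length. A count of 4 of 4 long members called lower is to be read against the 53.8% of all genes of that length. With bins cut at 50, 200 and 800 kb, TNR shared the 200 to 800 kb bin with CNTNAP4, CNTN1 and CNTN3. In that bin, 35.9% of 1040 genes were called lower. Of 93 genes of at least 800 kb, 54.8% were called lower, with CNTNAP2, CNTNAP5 and CNTN4 among them.

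**Figure D3:**
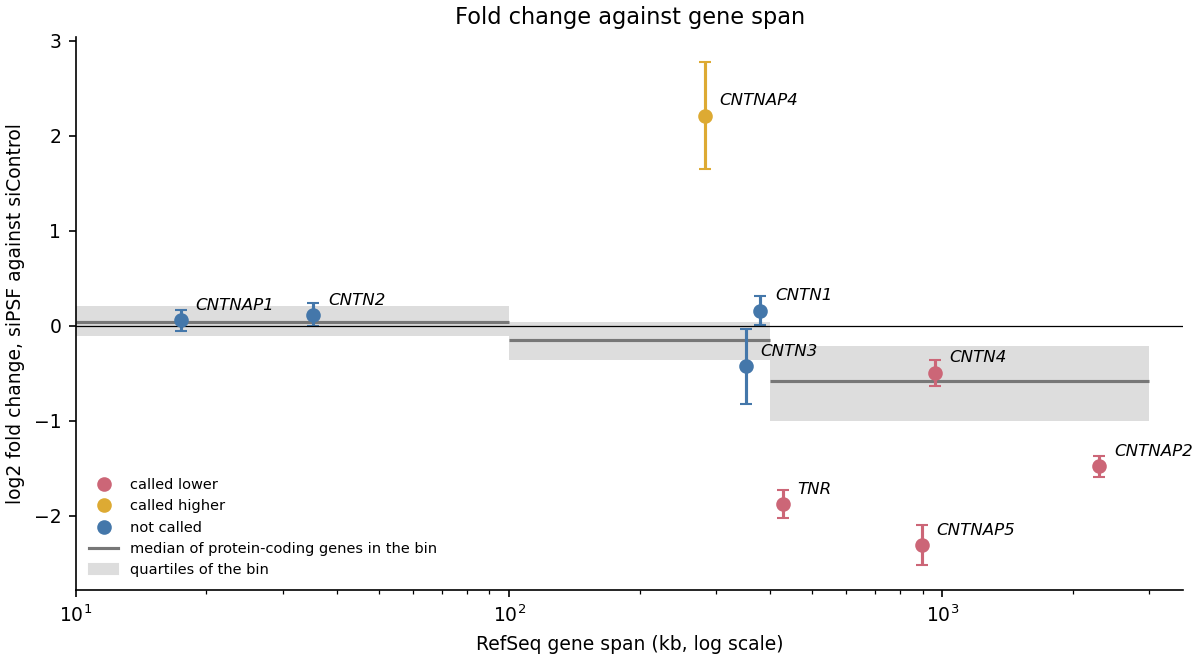
Log2 fold change (siPSF against siControl) against RefSeq genomic span in kilobases on a log axis. Points are the 9 members with standard errors, coloured by whether they were called, and grey bars give the median and quartiles of all tested protein-coding genes in 3 span classes: CNTNAP5, TNR and CNTNAP2 lie below the lower quartile of genes of at least 400 kb, and CNTN4 lies near their median of -0.58.

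No other row of the table overlapped a member on RefSeq coordinates. Of the 18 nearest tested protein-coding genes on both sides, 2 were called lower and 0 higher (edgeR), beside 8.27% and 6.65% of all genes tested. These were CNTN6, beside CNTN4, and NFASC, which lies 20.1 kb from CNTN2 and encodes neurofascin, the glial and axonal partner of the contactin-1 and CNTNAP1 complex. CUL1 beside CNTNAP2 (log2 fold change -0.03, adjusted p = 0.87) and the neighbours of CNTNAP5 (TSN, 0.03, adjusted p = 0.86, and BIN1, -0.14, adjusted p = 0.33) were not called. Beside TNR, KIAA0040 stood at -0.57 (adjusted p = 0.091) and COP1 at -0.10 (adjusted p = 0.49), neither called. The neighbours CCR10, EZH1, TERF2IP, MON1B, MUC19, GXYLT1, TMEM81, PDZRN3, ZNF717 and TRNT1, were not called either, with log2 fold changes from -0.35 (PDZRN3) to 0.76 (CCR10).

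A list of 41 genes whose products bind these proteins or share their complexes was followed as well, of which 37 were tested (PTPRZ1, ACAN, HAPLN1 and KCNA1 had no row). Of these, 8 were called lower, 5 higher and 24 were not called (edgeR), with a median log2 fold change of -0.11 beside 0.01 over all genes. The shares over all genes tested, against which these and the subgroup counts below are to be read, were 8.27% lower and 6.65% higher. The list was drawn up with earlier results in view. Of the 13 calls, 5 held whichever library was left out (ANK2, PTPRA, TNC, SPTBN1 and SCN2B), and the other 8 were lost in 1 to 4 of the 6 such fits.

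The receptor phosphatases, which bind contactins, were both lower where tested. PTPRG, a ligand of CNTN3 to CNTN6, went from 6.46 ± 0.655 to 4.16 ± 0.560 CPM (SD, n = 3 each; log2 fold change -0.63, adjusted p = 0.013, edgeR, lost without siControl replicate 3, adjusted p = 0.056). PTPRA went from 88.8 ± 3.21 to 68.0 ± 1.42 CPM (-0.38, adjusted p = 0.0063). In the L1 family of adhesion proteins, 2 of 4 were called lower. CHL1 went from 1.94 ± 0.377 to 0.935 ± 0.254 CPM (-1.05, adjusted p = 0.012, lost without siControl replicate 3), and NFASC from 62.9 ± 5.77 to 46.7 ± 4.61 CPM (-0.43, adjusted p = 0.015, lost in 3 of the 6 fits that left out a library: siControl replicates 2 and 3 and siPSF replicate 1). L1CAM (-0.26, adjusted p = 0.088) and NRCAM (-0.20, adjusted p = 0.22) were not called.

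Of the other tenascins, TNC, the tenascin of embryonic matrix, fell from 2.72 ± 0.357 to 1.51 ± 0.232 CPM (-0.85, adjusted p = 0.0094, edgeR). TNXB and TNN were not called. Of the lecticans, which tenascin-R cross-links in perineuronal nets, and the link proteins, 0 of 6 tested were called by edgeR or by DESeq2, and 0 had an unadjusted p under 0.05. Of the APP family, APP fell from 505 ± 46.3 to 402 ± 25.3 CPM (-0.33, adjusted p = 0.033, edgeR), a call lost without siControl replicates 2 or 3 or siPSF replicates 1 or 2. APLP1 and APLP2 were not called.

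The membrane skeleton beneath these complexes gave calls in both directions. ANK2, an axonal ankyrin, was measured at 125, 125 and 139 CPM in siControl and at 57.7, 58.4 and 38.6 CPM in siPSF, without overlap (log2 fold change -1.33, SE 0.14, adjusted p = 1.2e-04, edgeR). Its span of 678 kb also puts it among the genes of at least 400 kb, as do the spans of PTPRG (736 kb) and ANK3 (707 kb). SPTBN1, a beta spectrin, fell from 565 ± 30.0 to 442 ± 21.3 CPM (-0.36, adjusted p = 0.015). EPB41L1, a protein 4.1 family adaptor, rose from 41.2 ± 0.712 to 52.9 ± 4.198 CPM (0.36, adjusted p = 0.018, lost without siControl replicates 1 or 2). SPTBN4, the nodal beta spectrin and named here after its values were seen, rose from 22.1 ± 2.44 to 29.2 ± 3.59 CPM (0.40, adjusted p = 0.037, lost without siControl replicates 2 or 3 or siPSF replicates 2 or 3). The remaining 4 of the 8 were not called by edgeR, while DESeq2 also called ANK3 lower (adjusted p = 0.027, against 0.052 by edgeR).

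Of the sodium channel beta subunits, some of which bind contactins, 2 of 4 were called higher. SCN2B was measured at 2.47, 2.45 and 2.49 CPM in siControl and at 3.78, 4.84 and 3.69 CPM in siPSF, without overlap (log2 fold change 0.73, adjusted p = 0.0084, edgeR). SCN4B was measured at 8.19, 6.14 and 5.93 CPM in siControl and at 15.0, 16.6 and 7.57 CPM in siPSF, where replicate 3 overlapped the siControl range (0.95, adjusted p = 0.019). DESeq2 called 1 of the 4, leaving out SCN4B (adjusted p = 0.054). The SCN4B call by edgeR was lost without siControl replicates 2 or 3 or siPSF replicates 1 or 2. NOTCH1, a receptor that contactins can bind, was higher at 8.21, 5.66 and 4.99 CPM against 13.7, 15.4 and 7.94 CPM, again with siPSF replicate 3 inside the siControl range (0.98, adjusted p = 0.015, lost without siControl replicates 2 or 3). FYN, a kinase downstream of contactins, was not called. Of the juxtaparanodal channel and scaffold genes around CNTNAP2, 0 of 5 tested were called by edgeR or DESeq2, and 2 had an unadjusted p under 0.05.

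**Figure D4:**
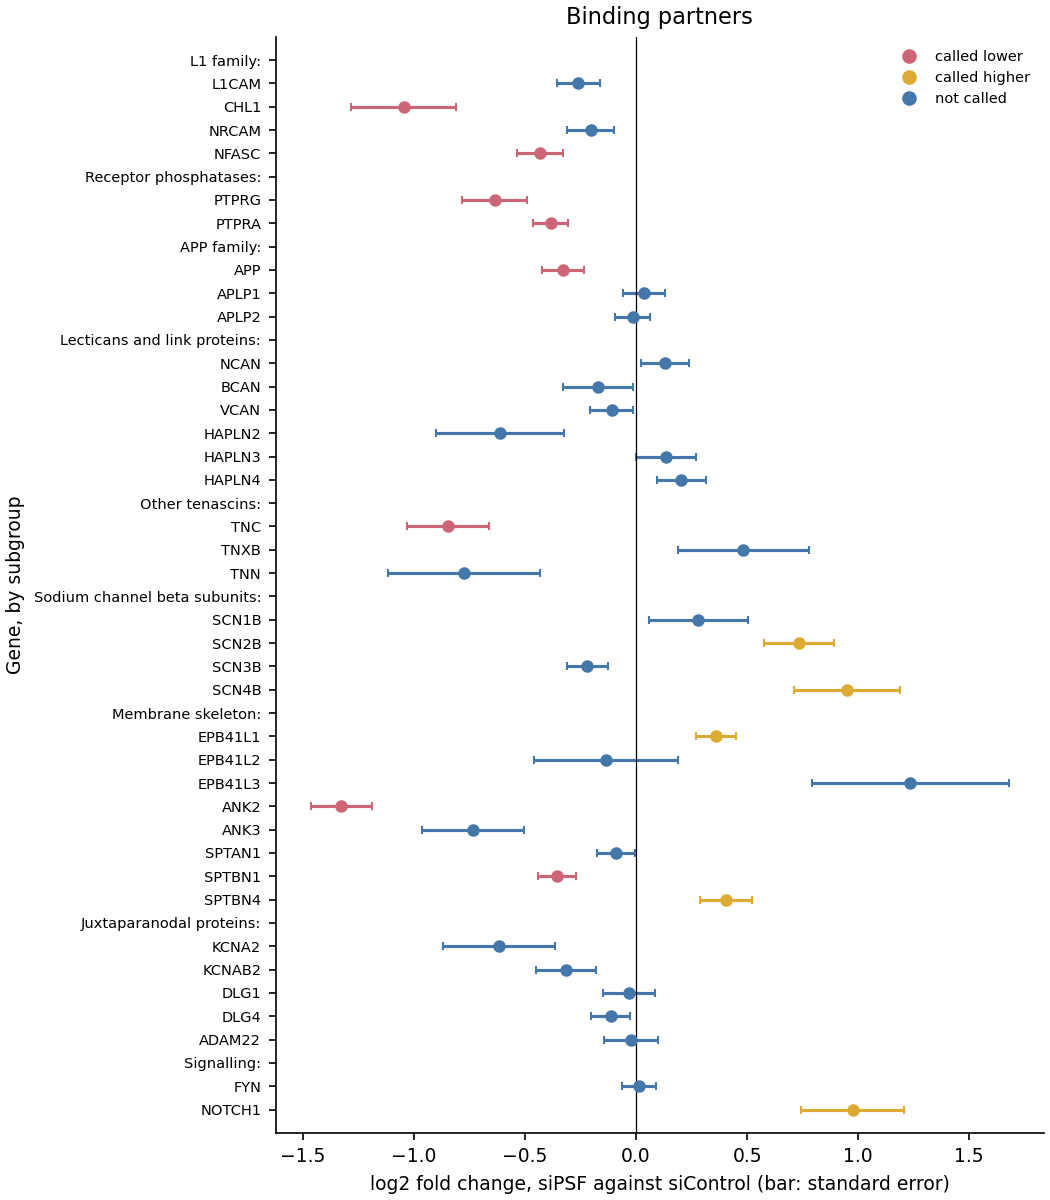
Log2 fold change (siPSF minus siControl) with its standard error for the 37 tested partner genes in their subgroups, coloured by whether the gene was called. Both receptor phosphatases and ANK2 lie below 0, the called sodium channel beta subunits lie above 0, and the lecticans, link proteins and juxtaparanodal genes hold no called gene.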

How the data were processed

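RNA-seq of SH-SY5Y cells was taken from 1 deposited table, with 3 siControl and 3 siPSF libraries. For every gene the authors deposited raw counts and FPKM values of each library, and 0 per-sample columns were left unused. The sources differ on how they were made. The study's methods name Bowtie 2 for removal of ribosomal reads, TopHat, hg38, RefSeq genes and another TruSeq kit, with the length-scaled unit called RPKM. The submitters' processing notes list Trimmomatic, HISAT2 2.1.0, StringTie 2.1.3b and GRCh38, and the labels name a stranded TruSeq kit. Strand use in counting is not given in the sources used here. An FPKM value moves with the exonic length used for that library.

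Groups and replicate numbers came from the sample titles. Counts were filtered (filterByExpr, 19694 of 21301 rows kept), TMM-normalised and tested with the edgeR 4.0.16 quasi-likelihood test (R 4.3.3), adjusted by Benjamini-Hochberg over all genes tested, and called at an adjusted p under 0.05. CPM used TMM library sizes. Depth was 101540520 to 132420931 counts per library, and the common biological coefficient of variation was 12.6%. No replicate pair differed by as little as sampling noise. Implied length was log2 of counts per FPKM, tested with limma 3.58.1. Partner ratios used an exact permutation test. The fits were tested on simulated data.

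Alternatives were each library left out, a replicate block, DESeq2 1.42.0 size factors and Wald test, no count filter, and limma on log2(FPKM + 0.5), with an offset of 0.1, with no filter, or with FPKM rescaled between libraries. Fold changes in those FPKM fits understate changes of low genes. Positions, spans and promoters came from RefSeq on GRCh38.p14 by gene ID (20822 rows matched) and transcripts from GENCODE release 44. Named were all members, relatives with rows, nearest tested neighbours, SFPQ, and up to 12 called partners with the smallest p. The members and lists were chosen with earlier results of these data known. CNTN5 and the study's other experiments were not analysed here. A few neighbouring and marker genes are not reported here.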

Additional observations from a re-analysis of the deposited data

How the results depend on the processing

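The falls of CNTNAP2, CNTNAP5, TNR and SFPQ kept their direction and their call under every alternative run. Among the members, 4 were called lower in every fit on all 6 libraries except limma on FPKM without a filter, where CNTN4 lost its call (-0.50, adjusted p = 0.074), and 3 to 4 when 1 library was left out. The count called higher, which is CNTNAP4, was 0 in all 4 limma fits on FPKM. The filter on FPKM removed CNTNAP4 in 3 of them, and without a filter it stood at 0.48 (adjusted p = 0.32). Leaving out 1 library gave 0 to 1 members higher. For the partner list the count higher was 1 with limma on FPKM without a filter and 0 in the other 3 FPKM fits, and 1 to 4 when 1 library was left out. The count lower ranged from 4 (without siControl replicate 3) to 9. With rescaled FPKM values, which moved the median of all genes to -0.16 from 0.01, partners split into 11 lower and 0 higher. The small positive values of CNTNAP1 (-0.070), CNTN1 (-0.030) and CNTN2 (-0.063) changed sign there, while FPKM without rescaling left them at 0.039, 0.068 and 0.038. Leaving out 1 library moved CNTN1 between 0.0015 and 0.30 and CNTN2 between 0.0033 and 0.24, with no call. CNTNAP1 also changed sign without siControl replicate 1 (-0.010) and siPSF replicate 2 (-0.037), in a range of -0.037 to 0.16 when 1 library was left out. The cause of these differences was not tested.

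Residuals of same-numbered siControl and siPSF libraries correlated at -0.02, 0.27 and 0.11, and those of unlike numbers at -0.31 to 0.19. With 3 libraries per group, these values cannot settle whether the replicate numbers mark pairs. With a replicate block, 4 members were lower and 1 higher, CNTNAP4 stood at 1.78 (adjusted p = 0.028), SFPQ at -0.999, and partners were 8 lower and 4 higher. CNTN3 and CNTNAP4, with 16 to 104 counts in most libraries, are the members whose precision depth limits.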

Other observations

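The adrenergic markers DBH (log2 fold change -0.68, adjusted p = 0.0024, edgeR) and TH (-1.20, adjusted p = 0.025), enzymes of catecholamine synthesis, were lower in siPSF, in the same libraries in which CNTNAP2, CNTNAP5 and TNR were lower. Their part in the members' values was not tested.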
